A study of Mus musculus with 12 samples.

Results

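Amino acid transporter genes of the solute carrier families SLC1, SLC3, SLC7, SLC36, SLC38 and SLC43 were followed in mouse lung. Members were all genes whose symbol in the deposited table carries one of these family names, whatever their values. The families themselves were chosen with earlier results of these data known. The rule gave 41 of 38349 genes. Bulk RNA sequencing of whole lung from wild-type mice covered 12 libraries in 4 groups of 3. Control was uninjured lung, ALI was lung with acute injury from hypoxia and lipopolysaccharide (LPS, a bacterial cell wall component), and MSC and tpMSC were injured lungs given the treatment of that name. The labels give neither the age of the animals nor a dose, a route or a time, and do not state what distinguishes tpMSC from MSC or where the treatment cells came from. Whether the 3 libraries of a group came from different mice is not stated either, and if they did not, each p-value reflects technical spread alone.

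Cells take up amino acids through carriers that differ in substrate and driving force. Heteromeric exchangers consist of a heavy chain, Slc3a1 or Slc3a2, which brings the complex to the membrane, and 1 of several SLC7 light chains, which does the transport. SLC38 carriers use the sodium gradient to take up glutamine and other neutral amino acids, SLC1 carriers move glutamate or small neutral amino acids, and SLC36 carriers are coupled to protons. Immune cells that become active increase their uptake of several amino acids, and cystine uptake through Slc7a11 supplies cysteine for glutathione, the main thiol antioxidant.

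Levels are deposited FPKM (fragments per kilobase of gene, scaled to the depth of the library), which allow genes to be compared per length. Fold changes and adjusted p-values come from the edgeR quasi-likelihood test on the deposited counts, with Benjamini-Hochberg adjustment over 22915 genes, and a gene is said to have risen or fallen when its adjusted p was under 0.05. Library totals ran from 53083002 to 70209229 counts. Of the 41 members, 38 passed the filter on low counts. The 3 that did not, Slc38a8, Slc7a12 and Slc7a15, held 9 to 12 counts over all 12 libraries. In 28 members the mean of some group reached 1 FPKM, and the other 10 tested members, among them the heavy chain Slc3a1, never exceeded 1.17 FPKM in a library. None of these 10 was called in any of the 6 comparisons.

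Marker lists changed between the groups. In ALI against Control, the share to set beside their counts is 39.8% of all genes called, 20.2% up and 19.6% down. All 10 neutrophil markers rose in ALI, with a summed level of 145.9 to 238.7 FPKM in Control, 3797 to 4308 in ALI, 474.2 to 992.4 in MSC and 465.4 to 615.1 in tpMSC. Of 10 monocyte and macrophage markers 8 rose in ALI (summed 3516 to 3791 FPKM in Control, 4467 to 5548 in ALI, 4811 to 5700 in MSC and 3659 to 4613 in tpMSC). Of 10 alveolar macrophage markers 7 fell (381.2 to 460.0, 85.06 to 98.06, 72.76 to 836.7 and 466.5 to 691.6 FPKM in the same order). Of 8 endothelial markers 7 fell in ALI (828.7 to 853.2, 392.2 to 456.4, 466.0 to 622.4 and 578.8 to 647.6 FPKM). Of 8 alveolar type 1 markers 7 fell and 1 rose (2035 to 2093, 1197 to 1472, 1528 to 1760 and 1666 to 1924 FPKM), and all 6 erythroid markers fell (7704 to 15140, 2665 to 3177, 3516 to 4915 and 2866 to 5296 FPKM). Of 8 alveolar type 2 markers, which include the surfactant genes, 3 rose and 3 fell, with a median log2 fold change of 0.02. Their sum was lower in ALI (13530 to 14580, 6524 to 9708, 9633 to 11140 and 9475 to 11890 FPKM). Of 7 fibroblast markers 2 rose and 3 fell, with a median log2 fold change of 0.14 and a lower sum in ALI as well (1539 to 1626, 319.7 to 465.9, 683.6 to 969.6 and 735.1 to 1253 FPKM). Sums follow the most abundant markers, so for these last lists the lower sum does not describe the typical marker. Of 7 smooth muscle and pericyte markers 2 fell in ALI, and 6 rose in tpMSC against ALI, where 11.6% of all genes rose. Of 6 B and plasma cell markers 1 rose in ALI, and 5 fell in tpMSC against ALI, where 11.5% of all genes fell. The B and plasma cell sum was 78.95, 65.7 and 778.1 FPKM in MSC replicates 1, 2 and 3. No marker on these lists was at 0 in every library. The part of these shifts in the transporter results was not tested. In whole tissue, fewer cells of a type and less RNA per cell cannot be told apart.

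In uninjured lung the transporter messages were led by 3 genes. Slc43a3, a carrier of purine nucleobases, was at 66.8 ± 5.65 FPKM (SD, n = 3), Slc3a2 (the CD98 heavy chain) at 44.28 ± 1.85 and Slc7a10, a light chain for small neutral amino acids such as serine, alanine and glycine, at 42.97 ± 2.48. Slc3a2 and Slc7a10 did not differ beyond their spread, while Slc1a5, a glutamine carrier next in order, was lower at 27.47 ± 1.31. In ALI the order was Slc3a2 (59.34 ± 4.03 FPKM), Slc43a3 (47.75 ± 7.17), Slc38a2 (30.88 ± 1.34), Slc38a10 (27.5 ± 2.13) and Slc1a5 (27.35 ± 1.16). Slc7a10 stood at rank 12 of the 41 in ALI and at ranks 6 and 3 in MSC and tpMSC. Slc7a11 went from rank 32 in Control to rank 9 in ALI, and stood at ranks 23 and 28 in MSC and tpMSC.

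The promoters of the members whose levels moved most, and of those that hold a match to the amino acid response element, are shown to let the sequence be read beside the values. They run from 250 bases before to 50 after the start site and come from RefSeq on GRCm38.p6, read 5′ to 3′ on the gene's strand. Capitals mark matches to the element that the stress factor ATF4 binds, searched as TGATGNAAN on both strands.
Slc7a11 (chr3:50443564-50443863, minus strand): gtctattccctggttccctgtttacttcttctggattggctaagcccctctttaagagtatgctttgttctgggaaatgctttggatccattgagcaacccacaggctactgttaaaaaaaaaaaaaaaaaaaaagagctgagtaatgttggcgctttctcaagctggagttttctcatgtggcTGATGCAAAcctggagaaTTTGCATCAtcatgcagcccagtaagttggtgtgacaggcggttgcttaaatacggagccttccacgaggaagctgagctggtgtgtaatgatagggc
Slc7a7 (chr14:54417895-54418194, minus strand, 1 of its annotated starts): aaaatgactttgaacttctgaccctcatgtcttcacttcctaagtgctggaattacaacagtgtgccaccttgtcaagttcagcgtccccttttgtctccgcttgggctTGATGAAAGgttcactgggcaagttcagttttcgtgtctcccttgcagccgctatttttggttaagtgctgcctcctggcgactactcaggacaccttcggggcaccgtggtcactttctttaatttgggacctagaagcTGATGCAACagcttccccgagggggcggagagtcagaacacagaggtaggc
Slc1a4 (chr11:20332664-20332963, minus strand): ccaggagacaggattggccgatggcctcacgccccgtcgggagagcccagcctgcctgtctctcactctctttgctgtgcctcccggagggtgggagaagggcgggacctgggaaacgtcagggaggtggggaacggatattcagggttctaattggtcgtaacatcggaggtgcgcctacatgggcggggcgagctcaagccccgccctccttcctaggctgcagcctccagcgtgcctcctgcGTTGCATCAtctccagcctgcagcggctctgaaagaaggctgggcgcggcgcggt
Slc7a10 (chr7:35186135-35186434, plus strand): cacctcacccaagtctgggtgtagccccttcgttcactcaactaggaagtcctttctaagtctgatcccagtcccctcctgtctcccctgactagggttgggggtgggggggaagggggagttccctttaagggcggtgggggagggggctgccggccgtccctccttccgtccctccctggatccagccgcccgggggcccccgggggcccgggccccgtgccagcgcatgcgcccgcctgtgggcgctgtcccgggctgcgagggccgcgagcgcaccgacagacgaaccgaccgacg
Slc7a11 holds 2 matches on opposite strands, beginning 66 and 48 bases before the start site. Slc7a7 holds 2 in the window shown, beginning 141 bases and 1 base before it, and Slc1a4 holds 1 beginning 5 bases before it. An overlapping window from another annotated start of Slc7a7 holds the second of its matches again, 243 bases before that start. The windows of its remaining starts hold none. Slc7a10 holds none in the window shown. Promoters were found for 30 of the 41 members, 40 windows in all, and these 3 members, with 4 windows, were those with a match. Over all 32851 windows of the same length the share with a match was 3.95%. The antioxidant response element, searched as TGACNNNGC on both strands, matched in 6 windows of 5 members (Slc7a1, Slc7a6, Slc36a1, Slc38a2 and Slc43a1), and in 12.4% of all windows. No window of a member held both. A match describes the letters and is not a site shown to be bound.

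The first question was how injury changed these genes. Among the light chains of the heteromeric exchangers, Slc7a11, Slc7a5, Slc7a6, Slc7a7 and Slc7a8 rose in ALI and Slc7a10 fell. Over all members, 11 rose and 8 fell in ALI against Control, where 39.8% of all genes tested were called. Of the 38 members tested 50.0% were called, 28.9% up and 21.1% down, against 20.2% up and 19.6% down over all genes. The median log2 fold change of the members was 0.06, and over all genes it lay between -0.022 and 0.018 in all 6 comparisons. Calls for 16 of the 19 held under all 21 alternative settings. Those for Slc1a3, Slc43a3 and Slc7a1 did not, and are given with their limits where each gene is described.

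**Figure D1:**
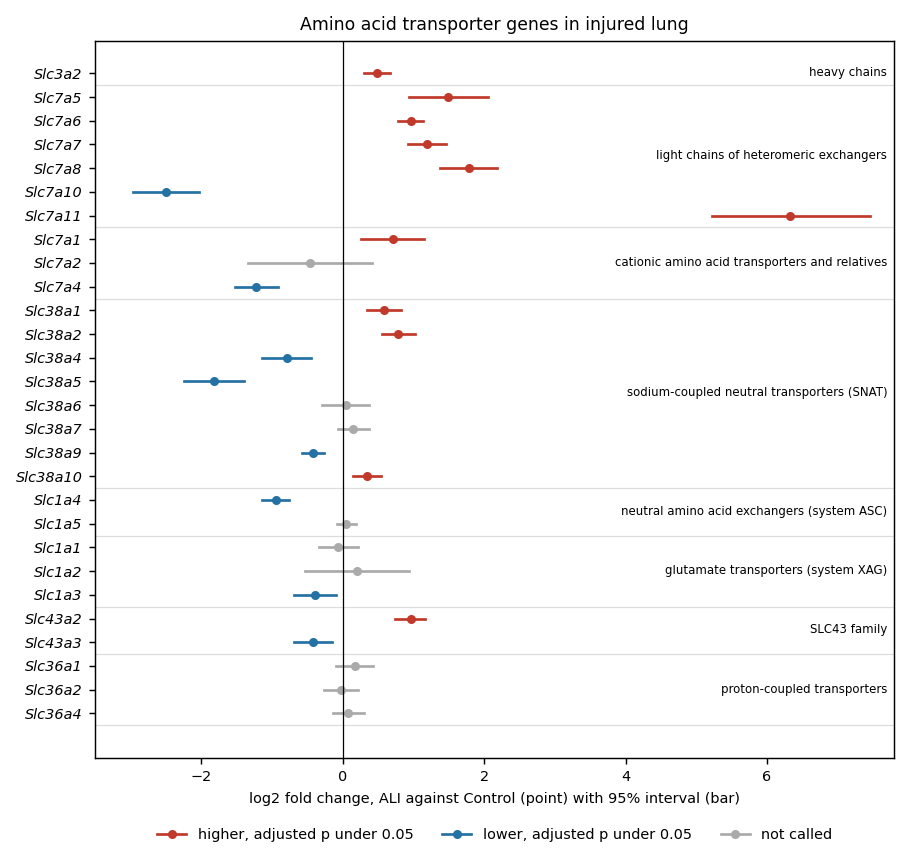
Log2 fold change of ALI against Control for the 28 members whose mean reached 1 FPKM in some group, ordered by transporter role, with 95% intervals (n = 3 libraries a group). Slc7a11 lies far to the right at 6.33 and Slc7a10 farthest to the left at -2.50.

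Slc3a2, the heavy chain that these light chains need to reach the surface, was at 44.34, 46.09 and 42.4 FPKM in Control, 59.05, 55.46 and 63.5 in ALI, 46.81, 55.28 and 49.31 in MSC and 52.72, 59.92 and 53.93 in tpMSC. All ALI libraries lay above all Control libraries (log2 fold change 0.48 ± 0.09 SE, adjusted p = 0.000862). The other heavy chain, Slc3a1, partner of a kidney cystine carrier, stayed at 0.09 to 0.42 FPKM over all libraries.

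Slc7a11, the cystine and glutamate exchanger, was at 0.13, 0.13 and 0.12 FPKM in the Control libraries, on 126, 142 and 121 counts. It was at 8.94, 11.76 and 8.82 FPKM in ALI, on 8915, 9557 and 8580 counts. Control was uniform and near the floor of expression, and ALI was higher in each library by more than an order of magnitude (log2 fold change 6.33 ± 0.51 SE, adjusted p = 4.6e-06). On the scale of log2(FPKM + 1), which compresses low values, the change was 3.26. MSC libraries held 2.04, 4.07 and 1.28 FPKM and tpMSC libraries 0.77, 0.52 and 1.47. Every treated library lay between the Control and the ALI libraries.

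Slc7a5, the LAT1 carrier of large neutral amino acids such as leucine, was at 1.43, 1.39 and 1.49 FPKM in Control, 4.06, 3.43 and 4.19 in ALI, 2.06, 3.78 and 3.17 in MSC and 1.97, 1.66 and 3.19 in tpMSC. Slc7a8, the LAT2 carrier of a similar range of substrates, was at 1.37, 1.36 and 1.15 in Control, 4.34, 3.66 and 4.74 in ALI, 2.76, 4.02 and 3.06 in MSC and 2.37, 1.75 and 2.65 in tpMSC. Both rose in ALI without overlap (log2 fold change 1.49 ± 0.25 SE, adjusted p = 0.00067 for Slc7a5, and 1.78 ± 0.18 SE, adjusted p = 2.15e-05 for Slc7a8). Slc7a5 was uniform in Control and spread widely in both treated groups.

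Slc7a6 and Slc7a7 are the y+L light chains, which exchange arginine and lysine for neutral amino acids, and Slc7a7 is the one whose loss in humans causes lysinuric protein intolerance, a disease with lung involvement. Slc7a6 was at 4.02, 4.29 and 4.27 FPKM in Control, 7.64, 7.74 and 8.11 in ALI, 6.36, 6.93 and 7.64 in MSC and 6.86, 6.04 and 6.03 in tpMSC. Slc7a7 was at 6.89, 6.82 and 6.51 in Control, 16, 12.67 and 15.63 in ALI, 9.64, 10.88 and 10.9 in MSC and 7.67, 8.47 and 10.51 in tpMSC. Both rose in ALI (0.96 ± 0.08 SE on the log2 scale, adjusted p = 7.8e-06, and 1.19 ± 0.12 SE, adjusted p = 2.21e-05), and for both genes all treated libraries lay above all Control libraries. Slc7a7 overlaps Oxa1l on the opposite strand by 232 bases of gene span, and reads from the shared stretch cannot be told apart because the strand setting of the counting is not given.

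Slc7a10, the Asc-1 light chain, was at 45.62, 40.72 and 42.56 FPKM in Control, 6.46, 9.29 and 6.07 in ALI, 26.12, 16.67 and 14.91 in MSC and 31.93, 33.65 and 26.03 in tpMSC. It fell in ALI more than any other member called (log2 fold change -2.50 ± 0.21 SE, adjusted p = 7.06e-06), and every treated library lay between the ALI and the Control libraries. Slc7a10 is also known from fat cells. The summed level of 6 adipose markers was 2.75 to 20.73 FPKM in Control, 2.16 to 9.47 in ALI, 1.66 to 22.05 in MSC and 5.3 to 29.24 in tpMSC, and its part in the Slc7a10 result was not tested. Slc7a10 shares 1088 bases of gene span with Lrp3 on the opposite strand, which averaged 4.03 FPKM over the 12 libraries. Of the other light chains in the table, Slc7a13 held at most 0.14 FPKM and was not called, and Slc7a12 and Slc7a15 were among the 3 members not tested.

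**Figure D2:**
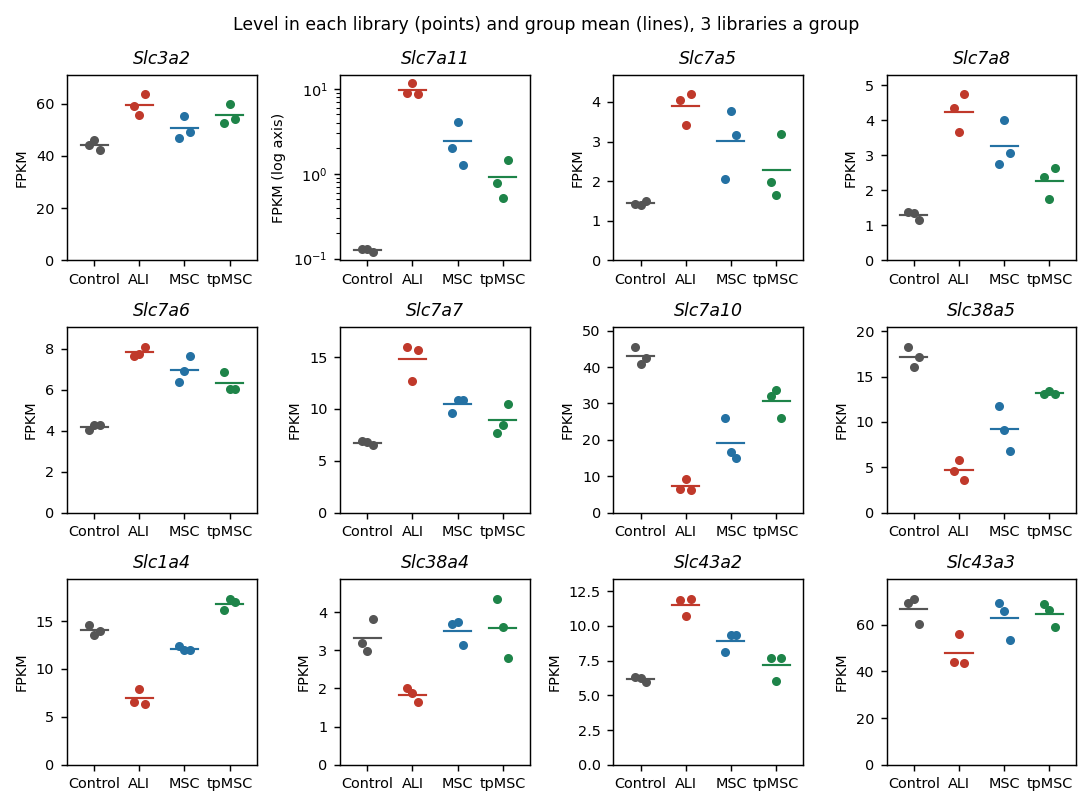
FPKM of 12 members in each library by group, 3 points a group with a line at the mean, on linear axes from 0 except for Slc7a11, which has a log axis. In Slc7a10, Slc38a5 and Slc1a4 the ALI points lie below those of all other groups, and in Slc7a11, Slc7a7 and Slc43a2 above them.

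As a description chosen after seeing these values, the 6 light chains that pair with Slc3a2 were summed. Their total was 54.71 to 59.46 FPKM in Control, 47.44 to 48.55 in ALI, 40.96 to 48.98 in MSC and 49.88 to 52.09 in tpMSC. The total was somewhat lower in ALI than in Control, and its make-up differed far more. Slc7a10 made up 74.4 to 76.7% of it in Control and 12.8 to 19.1% in ALI, and Slc7a11 made up 0.2% in each Control library and 18.5 to 24.2% in ALI. Slc7a7 held the largest share in ALI, at 26.1 to 33.7%. In MSC the share of Slc7a10 was 53.3, 36 and 36.4% in replicates 1, 2 and 3, and in tpMSC it was 61.9, 64.6 and 52.2%. The share of Slc7a11 was 3.1 to 8.8% in MSC and 1 to 2.9% in tpMSC. These shares count transcripts and not transporters at the membrane.

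**Figure D3:**
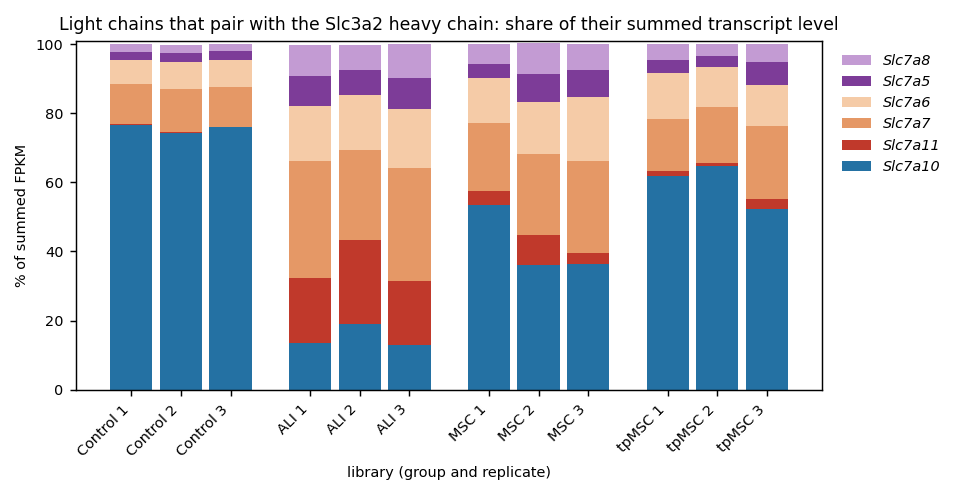
Share of each light chain in the summed FPKM of the 6 light chains that pair with Slc3a2, 1 bar a library. Slc7a10 (bottom segment) takes 74.4 to 76.7% in Control and 12.8 to 19.1% in ALI.

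Among the cationic amino acid transporters, which carry arginine and lysine, 1 rose and 1 fell of 5 in ALI against Control. That share was close to the 39.8% of all genes called there, 20.2% up and 19.6% down. Slc7a1, the widely expressed CAT1, was at 1.49, 1.63 and 1.39 FPKM in Control, 2.5, 2.03 and 2.55 in ALI, 1.92, 2.1 and 2.31 in MSC and 1.48, 1.67 and 2.79 in tpMSC. It rose in ALI (log2 fold change 0.71 ± 0.20 SE, adjusted p = 0.0157), a call that was lost without Control replicate 3 or ALI replicate 3 (highest adjusted p over the alternatives 0.0569). Slc7a4, a relative for which transport has not been shown, was at 4.5, 4.02 and 4.49 FPKM in Control, 1.79, 1.65 and 1.89 in ALI, 3, 2.19 and 2.22 in MSC and 3.49, 2.98 and 2.68 in tpMSC. Its ALI libraries lay below all others (log2 fold change -1.22 ± 0.14 SE, adjusted p = 3.81e-05). Slc7a4 shares 5783 bases of gene span with P2rx6 on the opposite strand, so reads of both genes may be mixed in its count.

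Slc7a2, the CAT2 arginine carrier that cytokines induce in macrophages, was at 7.91, 6.9 and 7.01 FPKM in Control and 4.97, 4.6 and 5.58 in ALI. The groups did not overlap, but the difference was not called (log2 fold change -0.46, 95% interval -1.34 to 0.41, adjusted p = 0.392). In MSC it was at 10.61, 21.58 and 4.37 FPKM, with replicate 2 far above replicate 3, and in tpMSC at 9.16, 6.34 and 9.78. The alveolar macrophage markers summed to 335.7, 836.7 and 72.76 FPKM in the same MSC libraries, in the same order. In tpMSC replicates 1, 2 and 3 they summed to 691.6, 633.5 and 466.5 FPKM. There the library with the lowest sum had the highest Slc7a2. The part of these markers in the Slc7a2 values was not tested. Slc7a3 and Slc7a14 stayed below 0.3 FPKM in each library.

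The sodium-coupled SLC38 carriers divided. Of 11, 10 were tested, and 3 rose and 3 fell in ALI, where 20.2% of all genes rose and 19.6% fell. Slc38a2 (SNAT2), a system A carrier known to be induced when amino acids are short, was at 19.17, 18.95 and 18.14 FPKM in Control, 30.99, 29.48 and 32.16 in ALI, 23.08, 26.9 and 32.47 in MSC and 23.84, 21.76 and 23.71 in tpMSC. It rose in ALI (log2 fold change 0.78 ± 0.11 SE, adjusted p = 0.000157). MSC replicate 3 lay as high as the ALI libraries, while the other treated libraries lay between the groups. Slc38a1 (SNAT1), a glutamine carrier, was at 1.76, 1.76 and 1.89 FPKM in Control, 2.52, 2.44 and 2.86 in ALI, 2.37, 2.54 and 2.45 in MSC and 2.48, 1.8 and 2.43 in tpMSC (ALI against Control 0.59 ± 0.11 SE on the log2 scale, adjusted p = 0.00121). Slc38a10 was at 20.68, 22.77 and 24.19 FPKM in Control, 29.01, 25.06 and 28.42 in ALI, 24.12, 26.79 and 26.18 in MSC and 22.14, 22.7 and 25.66 in tpMSC (0.35 ± 0.09 SE, adjusted p = 0.00881). For Slc38a10 the highest Control and the lowest ALI library were less than 1 FPKM apart.

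Slc38a5 (SNAT5), a system N carrier of glutamine, histidine and serine, was at 18.31, 16.05 and 17.2 FPKM in Control, 4.57, 5.8 and 3.61 in ALI, 11.72, 9.08 and 6.81 in MSC and 13.07, 13.42 and 13.05 in tpMSC. Its fall in ALI (log2 fold change -1.82 ± 0.19 SE, adjusted p = 2.3e-05) left the groups far apart, and all treated libraries lay between them. Slc38a4 (SNAT4), a further system A carrier, was at 3.19, 2.98 and 3.82 FPKM in Control, 2.01, 1.87 and 1.64 in ALI, 3.68, 3.74 and 3.13 in MSC and 4.35, 3.6 and 2.8 in tpMSC (-0.79 ± 0.16 SE, adjusted p = 0.00177). Slc38a9, the lysosomal carrier that senses arginine for the growth kinase mTORC1, was at 1.95, 1.95 and 2.06 FPKM in Control, 1.41, 1.41 and 1.44 in ALI, 1.61, 1.66 and 1.8 in MSC and 1.53, 1.42 and 1.38 in tpMSC (-0.42 ± 0.07 SE, adjusted p = 0.000552). Slc38a6 and Slc38a7, the latter a lysosomal glutamine carrier, were not called in ALI.

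In SLC1, Slc1a4 (ASCT1), which exchanges serine, alanine and cysteine, was at 14.56, 13.53 and 13.99 FPKM in Control, 6.56, 7.93 and 6.36 in ALI, 12.44, 11.96 and 11.97 in MSC and 16.13, 17.32 and 16.97 in tpMSC. The 4 groups did not overlap, with ALI lowest, then MSC, Control and tpMSC, and the fall in ALI was called (log2 fold change -0.95 ± 0.09 SE, adjusted p = 9.02e-06). Its relative Slc1a5 (ASCT2) was level at 26.08 to 30.07 FPKM over all 12 libraries, with a log2 fold change of 0.05 (95% interval -0.08 to 0.19) in ALI. Slc1a3 (GLAST), a glutamate carrier, was at 4.41, 3.97 and 3.79 FPKM in Control, 3.27, 2.52 and 3.12 in ALI, 3.52, 2.8 and 3.31 in MSC and 2.56, 3.37 and 3.4 in tpMSC (ALI against Control -0.39 ± 0.14 SE, adjusted p = 0.0394). That call was lost without Control replicate 1 or 2, ALI replicate 2 or 3 or tpMSC replicate 2, without the filter on low counts and with the replicate block (highest adjusted p over the alternatives 0.148). Slc1a1 and Slc1a2, both glutamate carriers, were not called in ALI.

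In SLC43, Slc43a2 (LAT4), a facilitative carrier of branched-chain amino acids and phenylalanine, was at 6.29, 6.23 and 5.99 FPKM in Control, 11.85, 10.71 and 11.95 in ALI, 8.11, 9.34 and 9.32 in MSC and 7.7, 6.05 and 7.71 in tpMSC. It rose in ALI with a wide gap between the groups (log2 fold change 0.96 ± 0.10 SE, adjusted p = 1.99e-05). Slc43a3 was at 69.05, 70.98 and 60.37 FPKM in Control, 43.89, 56.02 and 43.33 in ALI, 69.23, 65.81 and 53.16 in MSC and 68.57, 66.14 and 58.84 in tpMSC (-0.42 ± 0.12 SE, adjusted p = 0.0173). ALI replicate 2 lay close to the lowest Control library, and the call was lost without Control replicate 1 or 2 or ALI replicate 1 or 3 (highest adjusted p over the alternatives 0.0724). The proton-coupled carriers Slc36a1, Slc36a2 and Slc36a4 were at 6.02 to 17.13 FPKM and none was called in ALI.

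Several members are neighbours in the genome. On GRCm38 (GENCODE M21) Slc38a1, Slc38a2 and Slc38a4 lie in a row on the minus strand of chromosome 15, with gaps of 44.5 and 295.1 kb. Slc38a1 and Slc38a2 rose in ALI and Slc38a4 fell. Slc7a7 and Slc7a8, 304.4 kb apart on chromosome 14 with 23 annotated genes between, both rose. Slc43a1 and Slc43a3 lie 73 kb apart on chromosome 2, and the SLC36 genes Slc36a1, Slc36a2 and Slc36a3 form a cluster on chromosome 11 in which no gene was called.

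The next comparisons asked how treated lungs differed from untreated injured lungs. Against ALI, MSC lungs had higher Slc7a10, Slc38a5, Slc38a4 and Slc1a4 and lower Slc7a11, Slc7a7 and Slc43a2, and these 7 were the members called. The 4 that rose and 3 that fell were 18.4% of the 38 tested, where 10.2% of all genes were called, 5.03% up and 5.21% down. In tpMSC against ALI 6 members rose and 7 fell, 34.2% of those tested, where 23.1% of all genes were called, 11.6% up and 11.5% down. The ALI libraries enter these comparisons and the comparison with Control alike, so the directions are not independent of each other.

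Slc7a11 fell in both, with a log2 fold change of -2.05 in MSC against ALI (± 0.41 SE, adjusted p = 0.00942) and -3.44 in tpMSC against ALI (± 0.43 SE, adjusted p = 0.00029). In MSC its call was lost without MSC replicate 1 (adjusted p = 0.0501), the MSC library in the middle of the 3. For Slc7a7 the changes were -0.54 (± 0.12 SE, adjusted p = 0.0167) and -0.75 (± 0.12 SE, adjusted p = 0.00125), and for Slc43a2 -0.42 (± 0.10 SE, adjusted p = 0.0202) and -0.71 (± 0.10 SE, adjusted p = 0.000469). The MSC calls for Slc7a7 and Slc43a2 were each lost without ALI replicate 1, ALI replicate 3 or MSC replicate 1 (highest adjusted p over the alternatives 0.0751 and 0.0889). For both genes no treated library reached the lowest ALI library.

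Slc7a10 rose in MSC against ALI by 1.35 on the log2 scale (± 0.21 SE, adjusted p = 0.00244) and in tpMSC against ALI by 2.04 (± 0.21 SE, adjusted p = 9.56e-05). Slc38a5 rose by 0.93 (± 0.19 SE, adjusted p = 0.00999) and by 1.47 (± 0.19 SE, adjusted p = 0.000325). Slc1a4 rose by 0.75 (± 0.08 SE, adjusted p = 0.000527) and by 1.25 (± 0.09 SE, adjusted p = 1.34e-05), and Slc38a4 rose by 0.88 (± 0.16 SE, adjusted p = 0.00525) and by 0.94 (± 0.16 SE, adjusted p = 0.00153). For these 4 genes each treated library lay above each ALI library. The call for Slc38a5 in MSC was lost when the MSC and ALI libraries alone were fitted (adjusted p = 0.0672).

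Called in tpMSC against ALI and not in MSC against ALI were Slc7a8 (-0.94 ± 0.18 SE, adjusted p = 0.00318), Slc7a5 (-0.80 ± 0.25 SE, adjusted p = 0.0384), Slc38a2 (-0.44 ± 0.11 SE, adjusted p = 0.0115), Slc7a6 (-0.34 ± 0.08 SE, adjusted p = 0.0126), Slc7a4 (0.75 ± 0.14 SE, adjusted p = 0.00242) and Slc43a3 (0.41 ± 0.12 SE, adjusted p = 0.0338). None of these 6 differed between tpMSC and MSC by test. The call for Slc7a5 was lost without any single Control or ALI library, without tpMSC replicate 1 or 2 and without the filter on low counts (highest adjusted p over the alternatives 0.144). The call for Slc43a3 was lost without ALI replicate 1 or 3 or tpMSC replicate 1 or 2 (highest 0.124), and that for Slc7a6 without ALI replicate 3 (0.0541). Without MSC replicate 1 the number of members called in MSC against ALI was 4, and without MSC replicate 3 it was 11. Over all genes these omissions gave 1084 and 2141 calls, against 2347 with all libraries.

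**Figure D4:**
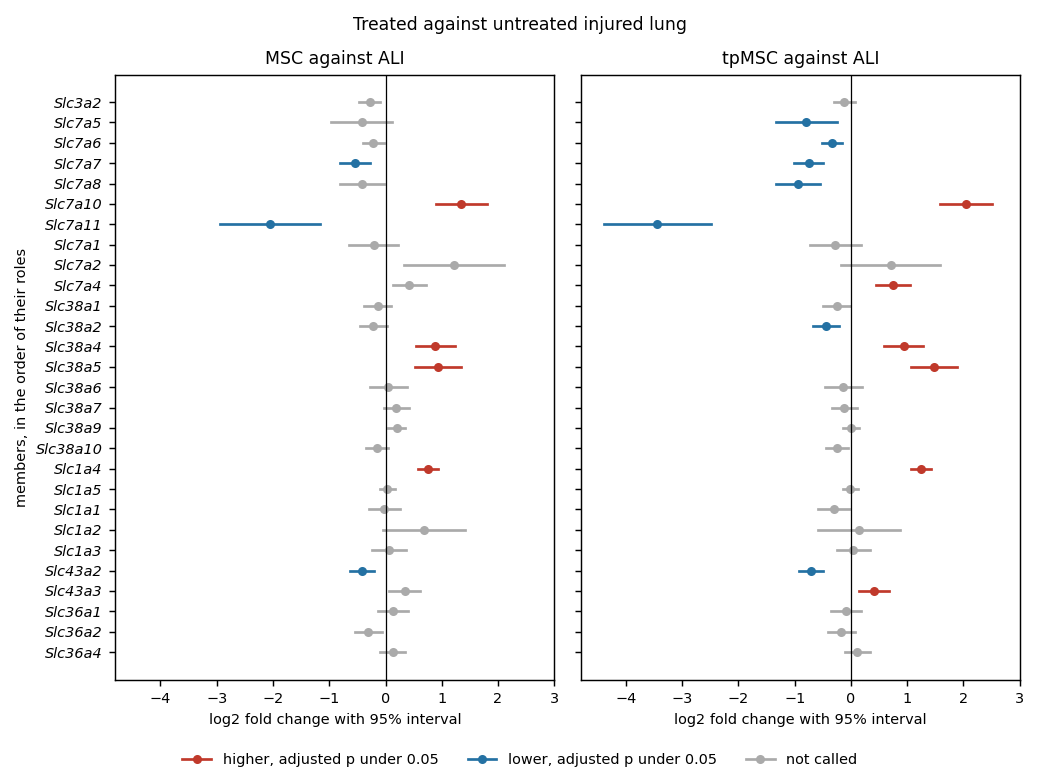
Log2 fold change against ALI for the 28 members whose mean reached 1 FPKM in some group, for MSC (left) and tpMSC (right), with 95% intervals (n = 3 libraries a group), in the order of their roles. Slc7a11 lies farthest to the left in both panels, at -2.05 and -3.44, and Slc7a10 farthest to the right, at 1.35 and 2.04.

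Between tpMSC and MSC themselves, no member was called by the edgeR quasi-likelihood test, where 0.0305% of all genes were. In the same test 10 of 38 had an unadjusted p under 0.05. The share of all genes under that unadjusted threshold was not worked out, so no excess among the members can be read from it. DESeq2, which called 670 of all genes here, called 2 members, Slc1a4 (adjusted p = 0.000118) and Slc7a10 (adjusted p = 0.0331), while the limma fits called none. Slc1a4 had the smallest p, with a log2 fold change of 0.50 (95% interval 0.31 to 0.68, adjusted p = 0.0931), and its tpMSC libraries all lay above its MSC libraries. For Slc7a11 the difference was -1.39 (95% interval -2.28 to -0.51, adjusted p = 0.186) and for Slc7a10 0.69 (95% interval 0.25 to 1.14, adjusted p = 0.189), with overlapping groups for both. For Slc3a2 it was 0.16 (95% interval -0.02 to 0.35). Leaving out 1 library gave at most 2 calls: Slc1a4 was called without ALI replicate 2 (adjusted p = 0.0489) and without tpMSC replicate 3 (0.0349), Slc7a11 without tpMSC replicate 3 (0.0432) and Slc7a10 without MSC replicate 1 (0.0479). Over all genes, omitting ALI replicate 2, tpMSC replicate 3 or MSC replicate 1 gave 8, 386 and 104 calls.

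Against Control, treated lungs had higher levels of several light chain messages. In MSC 9 members were higher and 4 lower than in Control, 34.2% of those tested, where 18.7% of all genes were called, 10.7% up and 8% down. In tpMSC 6 were higher and 2 lower, 21.1% of those tested, where 15.9% of all genes were called, 9.1% up and 6.79% down. Slc7a11 stayed above Control by 4.29 on the log2 scale in MSC (± 0.47 SE, adjusted p = 0.000269) and by 2.89 in tpMSC (± 0.45 SE, adjusted p = 0.00231), a tpMSC call that limma on log2(FPKM + 1) did not make (adjusted p = 0.0799). Slc7a6, Slc7a7 and Slc7a8 were also higher than Control in both, with Slc7a8 at 1.36 (± 0.18 SE, adjusted p = 0.000756) and 0.84 (± 0.18 SE, adjusted p = 0.0104), Slc7a6 at 0.74 (± 0.08 SE, adjusted p = 0.000312) and 0.62 (± 0.08 SE, adjusted p = 0.00119) and Slc7a7 at 0.65 (± 0.12 SE, adjusted p = 0.00433) and 0.44 (± 0.12 SE, adjusted p = 0.0327). The tpMSC call for Slc7a7 was lost without any single Control library, without tpMSC replicate 2 or 3 and in both limma fits on FPKM (highest adjusted p over the alternatives 0.112).

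Slc7a5, Slc38a1, Slc38a2, Slc38a7 and Slc43a2 were higher than Control in MSC, with log2 fold changes of 1.07 (adjusted p = 0.013), 0.46 (0.0146), 0.56 (0.00439), 0.34 (0.0367) and 0.54 (0.00328). The call for Slc7a5 was lost without Control replicate 2 or MSC replicate 2 and that for Slc38a1 without Control replicate 1 or 2. Slc38a7, at 4.84, 5.1 and 4.31 FPKM in Control and 5.8, 6.75 and 5.38 in MSC, lost its call without any single Control library, without ALI replicate 3, MSC replicate 2 or tpMSC replicate 1 or 2, and under 3 further settings (highest adjusted p over the alternatives 0.136). Its ALI libraries held 5.48, 4.67 and 5.01 FPKM and its tpMSC libraries 4.71, 4.65 and 4.86, and it was called in no other comparison. Slc7a10 and Slc38a5 remained lower than Control in MSC (-1.15, adjusted p = 0.00311, and -0.89, adjusted p = 0.00686) and were not called in tpMSC. Their tpMSC libraries still lay below all Control libraries. Slc7a10 held 26.03 to 33.65 FPKM in tpMSC and 40.72 to 45.62 in Control, and Slc38a5 13.05 to 13.42 and 16.05 to 18.31.

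Slc7a4 was lower than Control in both, at -0.80 in MSC (adjusted p = 0.00246) and -0.47 in tpMSC (adjusted p = 0.0355), and so was Slc38a9, at -0.22 in MSC (adjusted p = 0.0466) and -0.42 in tpMSC (adjusted p = 0.00286). The MSC call for Slc38a9 was lost under 16 of 21 settings, among them every omission of a library but MSC replicate 3 and tpMSC replicate 3, while its tpMSC call held under all. In tpMSC, Slc3a2 (0.36 ± 0.09 SE, adjusted p = 0.0155) and Slc1a4 (0.30 ± 0.08 SE, adjusted p = 0.0336) were higher than Control. The tpMSC call for Slc3a2 was lost without Control replicate 1 or 3 or tpMSC replicate 2, that for Slc1a4 without any single Control library or tpMSC replicate 2 or 3, and that for Slc7a4 without any of these 5 libraries, without ALI replicate 1 and without the filter on low counts. Without Control replicate 1, 2 or 3 the number of members called in tpMSC against Control was 4, 5 and 4. Over all genes these omissions gave 1860, 1830 and 2419 calls, against 3643 with all libraries.

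The pathways that these transporters feed were read from lists of their known genes. ATF4 targets are the genes that cells switch on when amino acids run short or proteins misfold. Of 24, 13 rose and 3 fell in ALI (median log2 fold change 0.53), where 39.8% of all genes were called, 20.2% up and 19.6% down. Nupr1, a stress-response cofactor, was at 20.45 ± 1.77 FPKM (SD, n = 3) in Control and 52.68 ± 4.17 in ALI (log2 fold change 1.43 ± 0.09 SE, adjusted p = 1.26e-06), and Cebpb, a transcription factor of inflammation and of this response, at 55.24 ± 2.52 and 186.7 ± 2.44 (1.82 ± 0.16 SE, adjusted p = 9.33e-06). Asns, the asparagine synthetase often used as a marker of the response, was at 7.89 ± 0.52 and 9.76 ± 0.474 FPKM and was not called (adjusted p = 0.095). Phgdh, the first enzyme of serine synthesis, fell from 6.06 ± 0.798 to 3.19 ± 0.296 FPKM (adjusted p = 0.0319) and was higher than ALI in MSC (adjusted p = 0.0136) and tpMSC (adjusted p = 0.00319). Asns and Phgdh in ALI against Control were chosen after their values were seen. In MSC against ALI 2 of the 24 rose and 2 fell, where 10.2% of all genes were called, and in tpMSC against ALI 2 rose and 3 fell, where 23.1% were.

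Slc7a11 brings in cystine, a source of the cysteine from which glutathione is made. Of 16 genes of its synthesis and turnover, 9 rose and 4 fell in ALI (median 0.52), where 39.8% of all genes were called. Gclc, the catalytic subunit of the rate-limiting enzyme of glutathione synthesis, was at 24.25, 24.42 and 27.7 FPKM in Control and 74.41, 68.3 and 71.71 in ALI (log2 fold change 1.55 ± 0.17 SE, adjusted p = 2.76e-05). Ggt1, which splits extracellular glutathione, was at 0.34, 0.42 and 0.37 FPKM in Control, 2.74, 2.21 and 2.83 in ALI, 0.35, 0.28 and 0.49 in MSC and 0.27, 0.22 and 0.36 in tpMSC (ALI against Control 2.82 ± 0.25 SE, adjusted p = 7.8e-06). In the treated groups Ggt1 lay close to Control. Gsr, which regenerates reduced glutathione, rose by 0.91 on the log2 scale (± 0.11 SE, adjusted p = 6.97e-05). Against ALI, 3 of the 16 fell in MSC and none rose (10.2% of all genes called), and 6 fell and 3 rose in tpMSC (23.1% of all genes called), with Gclc at -0.63 (adjusted p = 0.0319) and -0.91 (adjusted p = 0.00233).

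Arginine and polyamine enzymes use what the cationic carriers bring in. Of 19, 18 were tested, and 8 rose and 3 fell in ALI (median 0.35), where 39.8% of all genes were called, 20.2% up and 19.6% down. Arg2, the mitochondrial arginase, was at 7.67, 6.98 and 7.06 FPKM in Control, 64.24, 75.21 and 62.32 in ALI, 24.77, 40.4 and 23.22 in MSC and 17.42, 14.34 and 21 in tpMSC (ALI against Control 3.28 ± 0.21 SE, adjusted p = 1.38e-06). Nos2, the inducible nitric oxide synthase, was at 1.35, 1.22 and 1.07 FPKM in Control, 9.17, 10.08 and 11.96 in ALI, 3.02, 2.1 and 2.83 in MSC and 1.69, 1.53 and 3.6 in tpMSC (3.16 ± 0.30 SE, adjusted p = 1.29e-05). For both genes no treated library reached the ALI range. Oaz2, an inhibitor of polyamine synthesis, and Ddah2, which degrades an inhibitor of nitric oxide synthases, fell by 1.02 and 0.70 in ALI. Against ALI, 4 of the 18 fell in MSC and none rose, where 10.2% of all genes were called, and 5 fell and 2 rose in tpMSC, where 23.1% were.

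Of 24 genes through which lysosomal amino acids signal to mTORC1, 5 rose and 4 fell in ALI (median -0.08), a share close to the 39.8% called over all genes. Fnip2, a partner of the folliculin complex, was at 3.61 ± 0.27 FPKM in Control and 10.6 ± 1.2 in ALI (log2 fold change of 1.61 ± 0.12 SE, adjusted p = 3.63e-06) and was lower than ALI in MSC (-0.79 ± 0.12 SE, adjusted p = 0.00255) and in tpMSC (-1.29 ± 0.12 SE, adjusted p = 6.54e-05). Sesn2, a leucine sensor, rose by 0.63 and Sesn1, its relative, fell by 0.58 in ALI. Against ALI, 1 of the 24 rose and 1 fell in MSC (10.2% of all genes called), and 3 rose and 4 fell in tpMSC (23.1% of all genes called).

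**Figure D5:**
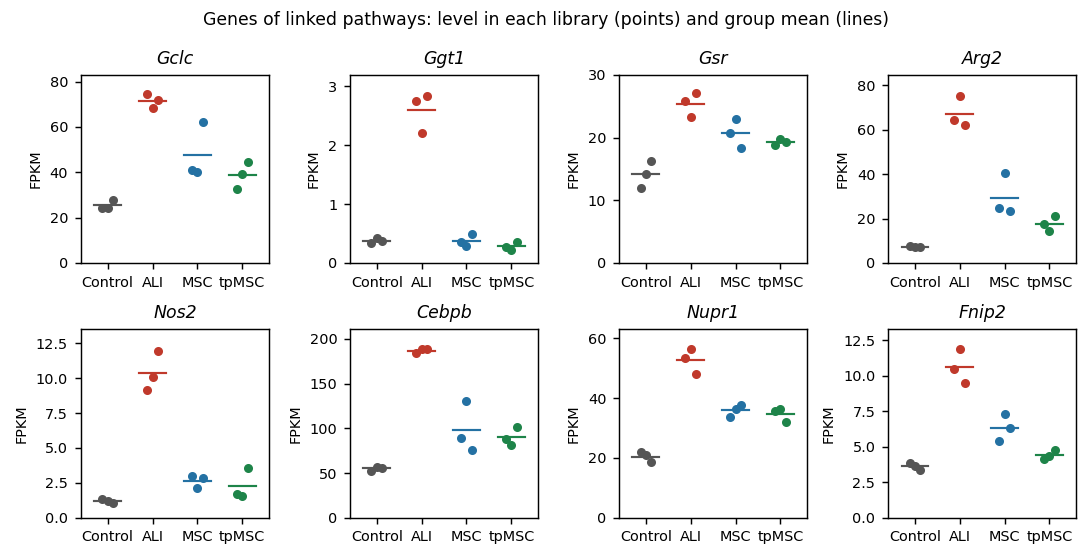
FPKM of 8 genes of the glutathione, arginine, ATF4 and mTORC1 lists in each library by group, 3 points a group with a line at the mean, on linear axes from 0. All 8 are highest in ALI, and Ggt1 lies close to Control in both treated groups. Only named genes that rose in ALI against Control are shown, which favours a high ALI level. Phgdh, Oaz2, Ddah2 and Sesn1, which fell in ALI, are left out.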

How the data were processed

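Per the file headers, the authors deposited counts of reads and FPKM values of 38349 genes for 12 libraries. Named in the submitters' processing notes are GRCm38, HISAT2 2.0.4, cutadapt 1.9, StringTie 1.3.4d, edgeR and DESeq2. The sources used here do not say which tool counted, with what strand setting or on which annotation. Libraries were made from oligo(dT)-selected mRNA with dUTP, per the labels' protocols. Gene positions in the deposited table equalled GRCm38 for 1 of 41 members, so positions printed are from GENCODE M21 or RefSeq on GRCm38.

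The edgeR 4.0.16 fit (R 4.3.3) took the 12 libraries together, with 1 mean per group, after filterByExpr and TMM scaling, and was tested on simulated data. Standard errors come from the fold change and its F statistic. FPKM is printed as deposited. Groups came from the titles. Replicate numbers showed no pairing and entered only an alternative fit. Alternatives used RLE scaling, other filters, DESeq2 1.42.0, limma 3.58.1 on log2(FPKM + 1), log2(FPKM + 0.1) or voom with sample weights, the 2 groups alone, the replicate block and each library left out. Named members were all those called in any comparison whose mean reached 1 FPKM in some group. From each other list, at most 4 genes with the smallest p were named. Asns and Phgdh in ALI against Control were exceptions, added after their values were seen. Members and lists were chosen with earlier results of these data known. No row of the deposited table carries the symbol Slc7a9, also a light chain, so it is not among the members.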

Additional observations from a re-analysis of the deposited data

How the results depend on the processing

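None of the 60 fold changes of members called (counted per comparison) changed direction under any of 21 alternatives. Of 1260 values, 1172 stayed called and 88 did not, and 41 of the 60 calls held throughout. The number called in MSC against ALI, 7 as reported, was 11 with DESeq2 and 14 with voom and sample weights, and ran from 4 to 11 when 1 library was left out. In tpMSC against ALI, 13 became 20 with voom and sample weights, with 10 to 16 over the omissions. In tpMSC against MSC, 0 became 2 with DESeq2, with 0 to 2 over the omissions, and in tpMSC against Control, 8 ran from 4 to 10 over the omissions and was 12 with DESeq2, 12 with voom and sample weights, 11 with the 2 groups alone and 6 with limma on log2(FPKM + 1). In ALI against Control, 19 ran from 16 to 20 over the omissions and was 22 with voom and sample weights, and in MSC against Control, 13 ran from 10 to 15 and was 15 with DESeq2. Calls over all genes moved too. In MSC against ALI they were 2347 as reported, 3599 with DESeq2 and 3756 with voom and sample weights. In tpMSC against ALI 5299 became 8444 with voom. In tpMSC against Control 3643 became 5021 with DESeq2, 5952 with voom and 4277 with the 2 groups alone. Limma on log2(FPKM + 1) gave 3608 there. In ALI against Control 9126 became 12125 with voom, and in MSC against Control 4284 became 5482 with DESeq2. In tpMSC against MSC, DESeq2 called 670 where edgeR called 7. With 1 library omitted, all-gene calls ran from 7456 to 9460 in ALI against Control and 1084 to 2930 in MSC against ALI. They ran from 3399 to 5800 in tpMSC against ALI and 0 to 386 in tpMSC against MSC. They ran from 2465 to 4751 in MSC against Control and 1830 to 4247 in tpMSC against Control. Without the filter on low counts the members called were 18, 7, 12, 0, 11 and 7 in the order ALI against Control, MSC against ALI, tpMSC against ALI, tpMSC against MSC, MSC against Control and tpMSC against Control. Over all 36573 genes then tested they were 8249, 1715, 4384, 0, 3401 and 2795.

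With the replicate block the numbers of members called were 18, 8, 14, 0, 12 and 8 in the same order, and the calls for Slc1a3 in ALI and Slc38a9 in MSC, both against Control, were lost. Over all genes the block gave 8869, 2102, 5058, 0, 4013 and 3351 calls. No pairing by number was seen: over 18 pairs of same-numbered libraries the correlation of deviations from the group means lay between -0.108 and 0.104, and the best match of 4 of the 12 libraries carried their own number. A correlation over all genes cannot exclude a shared factor that touches few genes. On log2(FPKM + 1), Slc7a11 changed by 3.26 in ALI against Control in place of 6.33, and by 0.74 in place of 2.89 in tpMSC against Control. The pseudocount sets that difference, because Control was near 0.13 FPKM. Depth limits the 13 members below 1 FPKM, least so Slc43a1, which held 168 to 472 counts a library.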

Other observations

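Of 20 amino acid transporters of other families tested, 8 rose and 2 fell in ALI against Control, where 39.8% of all genes were called, 20.2% up and 19.6% down. Slc6a20a, a proline and imino acid carrier, was at 0.66, 0.96 and 0.67 FPKM in Control, 8.5, 10.09 and 8.16 in ALI, 4.26, 5.99 and 6.79 in MSC and 2.77, 1.61 and 2.97 in tpMSC. It rose in ALI (log2 fold change 3.6 ± 0.26 SE, adjusted p = 2.68e-06) and fell in tpMSC against ALI (-1.89 ± 0.24 SE, adjusted p = 0.000337), while MSC against ALI was not called (-0.70 ± 0.24 SE, adjusted p = 0.0863). Its near copy Slc6a20b could share reads with it. Slc15a3, a lysosomal carrier of histidine and small peptides, rose from 4.64 ± 0.495 to 19.72 ± 1.44 FPKM in ALI and was lower than ALI in MSC (-1.22 ± 0.24 SE, adjusted p = 0.00839) and tpMSC (-1.39 ± 0.24 SE, adjusted p = 0.00178). Slc6a14, a broad carrier of neutral and cationic amino acids, was at 47.32 ± 2.63 FPKM in Control and 63.03 ± 10.2 in ALI, which was not called (adjusted p = 0.0552), and fell in tpMSC against ALI to 29.45 ± 4.23 (-1.12 ± 0.18 SE, adjusted p = 0.00126). In tpMSC against ALI 5 of the 20 fell and none rose, where 23.1% of all genes were called, and in MSC against ALI 1 fell, where 10.2% were.

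Cytosolic aminoacyl-tRNA synthetases, which load amino acids onto tRNA, rose in part. Of 20, 12 rose and none fell in ALI, where 20.2% of all genes rose and 19.6% fell, with small changes such as Vars1 (9.15 ± 0.967 FPKM in Control and 14.03 ± 1.31 in ALI, a log2 fold change of 0.68 ± 0.12 SE, adjusted p = 0.000821). Wars1, the tryptophan enzyme, which interferon gamma induces, was at 33.89, 35.52 and 33.04 FPKM in Control, 46.72, 91.03 and 53.73 in ALI, 114.7, 95.17 and 95.4 in MSC and 99.73, 138.53 and 213.13 in tpMSC. It rose further in tpMSC against ALI (1.21 ± 0.28 SE, adjusted p = 0.00836), where 3 other synthetases fell (23.1% of all genes called), and was not called in MSC against ALI (0.62 ± 0.27 SE, adjusted p = 0.185). All MSC and tpMSC libraries lay above all ALI libraries for Wars1, with the largest spread in tpMSC.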
